A study of Cavia porcellus with 12 samples.

Results

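The genes described here encode the basement membrane and the receptors by which cells hold on to it: the type IV collagens, the laminins, the nidogens, perlecan and agrin, the integrins, the discoidin domain receptors, the syndecans and *CD44*. They were chosen by symbol alone, as every symbol that is listed in the authors' table of rlog (regularised log) values and is that of an integrin chain, a laminin chain, a type IV collagen chain or a syndecan, or one of 8 further names (*CD44*, *DDR1*, *DDR2*, *ILK*, *NID1*, *NID2*, *HSPG2* and *AGRN*). The pattern for integrins also takes in *ITGB1BP1* and *ITGB3BP*, which encode proteins named for binding a beta chain and are no integrins. This gave 50 of the 11896 symbols of the table. *ITGA2*, *ITGA11*, *ITGAX*, *ITGAD*, *LAMB3*, *LAMB4*, *LAMC3* and *COL4A3* had no row in that table and were not analysed here. Messenger RNA was sequenced from the left lateral liver lobe of 12 female Dunkin Hartley guinea pigs from a single breeder, which were 10 weeks old when they arrived. Of these, 6 had eaten chow (4% fat, no added sucrose or cholesterol) and were free of NASH and fibrosis, and 6 had eaten a high-fat diet (20% fat, 15% sucrose, 0.35% cholesterol) and were picked for NASH with bridging fibrosis, both for 25 weeks. Diet and disease go together in this design and cannot be told apart. The livers were not perfused, so blood cells were part of the tissue, and each animal was a sample of its own, named here by its number (controls 5, 10, 31, 32, 45 and 56, and NASH animals 2, 9, 11, 20, 41 and 65).

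A basement membrane is a thin sheet of matrix under epithelia and around vessels, in which a laminin network and a type IV collagen network are tied together by nidogens and heparan sulphate proteoglycans. A laminin is a trimer of an alpha, a beta and a gamma chain, and a type IV collagen molecule is a trimer of alpha chains. Cells bind these sheets through integrins, which are pairs of an alpha and a beta chain that link the matrix to the actin cytoskeleton, and through receptors of other families. The normal liver sinusoid is known for lacking a continuous basement membrane, which is present around bile ducts and larger vessels.

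Of the 50 genes, 33 were higher and 4 lower in NASH by edgeR's quasi-likelihood test at a Benjamini-Hochberg adjusted p-value under 0.05, and 13 did not pass. Over all 11896 symbols, 27.9% were called higher and 26% lower, so that 66% of the members were higher where 27.9% of all symbols were. The middle member had a log2 fold change of 0.90, and the middle one of all symbols had 0.00. Changes of 1 or more on the log2 scale were seen in 24 of the members called higher (12.8% of all symbols) and in 3 of those called lower (5.35% of all symbols). In 27 members every NASH animal lay above every control (18.4% of all symbols), and in 5 every NASH animal lay below (15.3% of all symbols). The groups were thus apart in 32 of the 50 members, against 33.7% of all symbols. Values are given in CPM, in which the counts of each animal are scaled to a common library total with edgeR's TMM factors. In a piece of whole liver, a change in the number of cells that express a gene and a change in RNA per cell cannot be told apart. Markers of other cells moved as well. The summed level of 12 stellate cell and myofibroblast markers was between 773 and 960 CPM in controls and between 1313 and 2480 CPM in NASH, with 8 of the 12 genes called higher and 1 lower. For 8 cholangiocyte markers it rose from between 376 and 428 CPM to between 586 and 1017 CPM (6 higher, 0 lower), and for 13 leukocyte markers from between 380 and 514 CPM to between 687 and 790 CPM (9 higher, 2 lower). The 8 endothelial markers overlapped, at 211 to 342 CPM in controls and 284 to 401 CPM in NASH (2 higher, 1 lower). Among hepatocyte markers, 7 of 8 were lower, their sum being between 99645 and 121040 CPM in controls and between 41105 and 62885 CPM in NASH, most of it *ALB*. Scaled by library size alone, *PECAM1*, *CDH5*, *TIE1*, *CLEC14A* and *ROBO4* of the endothelial markers were called higher and none lower. *ALB*, *TTR*, *CPS1* and *F2* were then still lower. *APOB*, *SERPINA1* and *APOA1* did not pass, and *ASGR1* was higher (log2 fold change 0.29, adjusted p = 0.00266 from edgeR). The sums of the 2 platelet markers in the table overlapped, at 33.6 to 50.7 CPM and 28.3 to 57.1 CPM (1 higher, 0 lower). Most of that sum was *CLEC1B*, and *TUBB1*, the other, was called higher (log2 fold change 1.39, adjusted p = 0.028 from edgeR). With library size alone, *CLEC1B* was called higher too (log2 fold change 0.45, adjusted p = 0.0152 from edgeR). No listed marker found in the table was at or under 3 counts in every control. The part of these cells in the changes below was not tested.

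**Figure D1:**
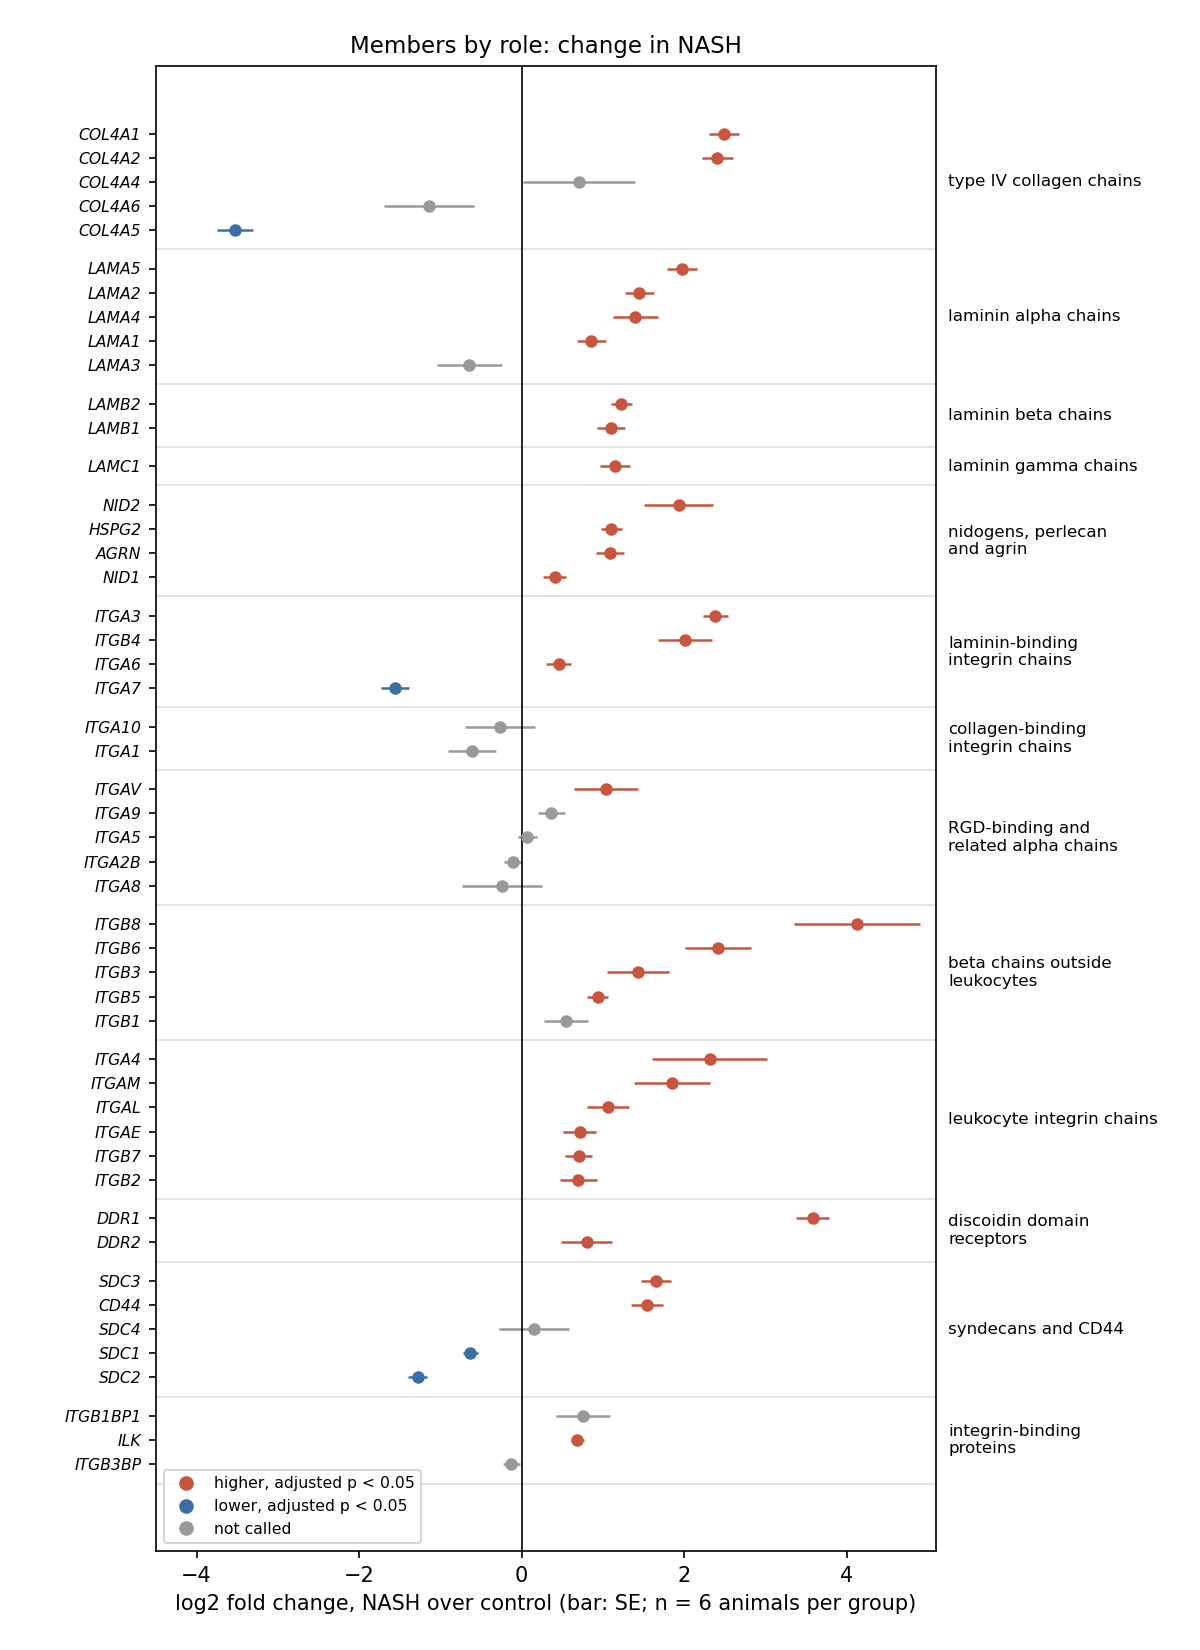
Log2 fold change of 49 of the 50 members in NASH over control, with its standard error (bars) and n = 6 animals per group, sorted by role. Red points are the 32 shown members called higher, blue points the 4 called lower and grey points the 13 that did not pass; *COL4A5*, at −3.53, stands alone at the left.

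The type IV collagens split. *COL4A1* and *COL4A2*, which encode the chains of the common form of type IV collagen, rose together, whereas *COL4A5*, which encodes a chain of the less common forms, fell. *COL4A1* lay between 28.0 and 44.4 CPM in controls (median 36.7) and between 143 and 289 CPM in NASH (median 180). Every NASH animal was above every control, a 5.63-fold rise (log2 fold change 2.49, SE 0.19, adjusted p = 4.79e-07 from edgeR). *COL4A2* went from between 12.7 and 24.2 CPM (median 22.7) to between 86.2 and 148 CPM (median 101), again without overlap (5.31-fold, log2 fold change 2.41, SE 0.19, adjusted p = 7.24e-07 from edgeR). *COL4A5* was between 8.72 and 17.6 CPM in controls (median 9.78) and between 0.688 and 1.23 CPM in NASH (median 0.864). The highest NASH animal was thus far below the lowest control, and the gene was 11.6-fold lower (log2 fold change −3.53, SE 0.22, adjusted p = 1.49e-07 from edgeR), on counts of 147 to 246 in controls and 21 to 47 in NASH. It had the lowest log2 fold change of all members, and without control 5, whose 17.6 CPM was the highest, the other controls lay within 8.72 to 9.89 CPM. *COL4A6*, which lies beside *COL4A5* in the RefSeq annotation of assembly mCavPor4.1, was at 1.82 ± 0.417 CPM in controls and 0.831 ± 0.679 CPM in NASH (SD, n = 6 each), and did not pass (log2 fold change −1.14, SE 0.56, adjusted p = 0.103 from edgeR). With limma-voom and with limma on the rlog values it was called lower (adjusted p = 0.0289 and 0.0172). Its NASH animals spread from 0.0312 CPM in animal 20 to 1.84 CPM in animal 2, and without animal 2 the gene was called lower (log2 fold change −1.54, adjusted p = 0.0362 from edgeR). *COL4A4* had between 0 and 58 counts in controls and did not pass either (adjusted p = 0.414 from edgeR). In the RefSeq annotation it overlaps *COL4A3*, which had no row of its own in the table.

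**Figure D2:**
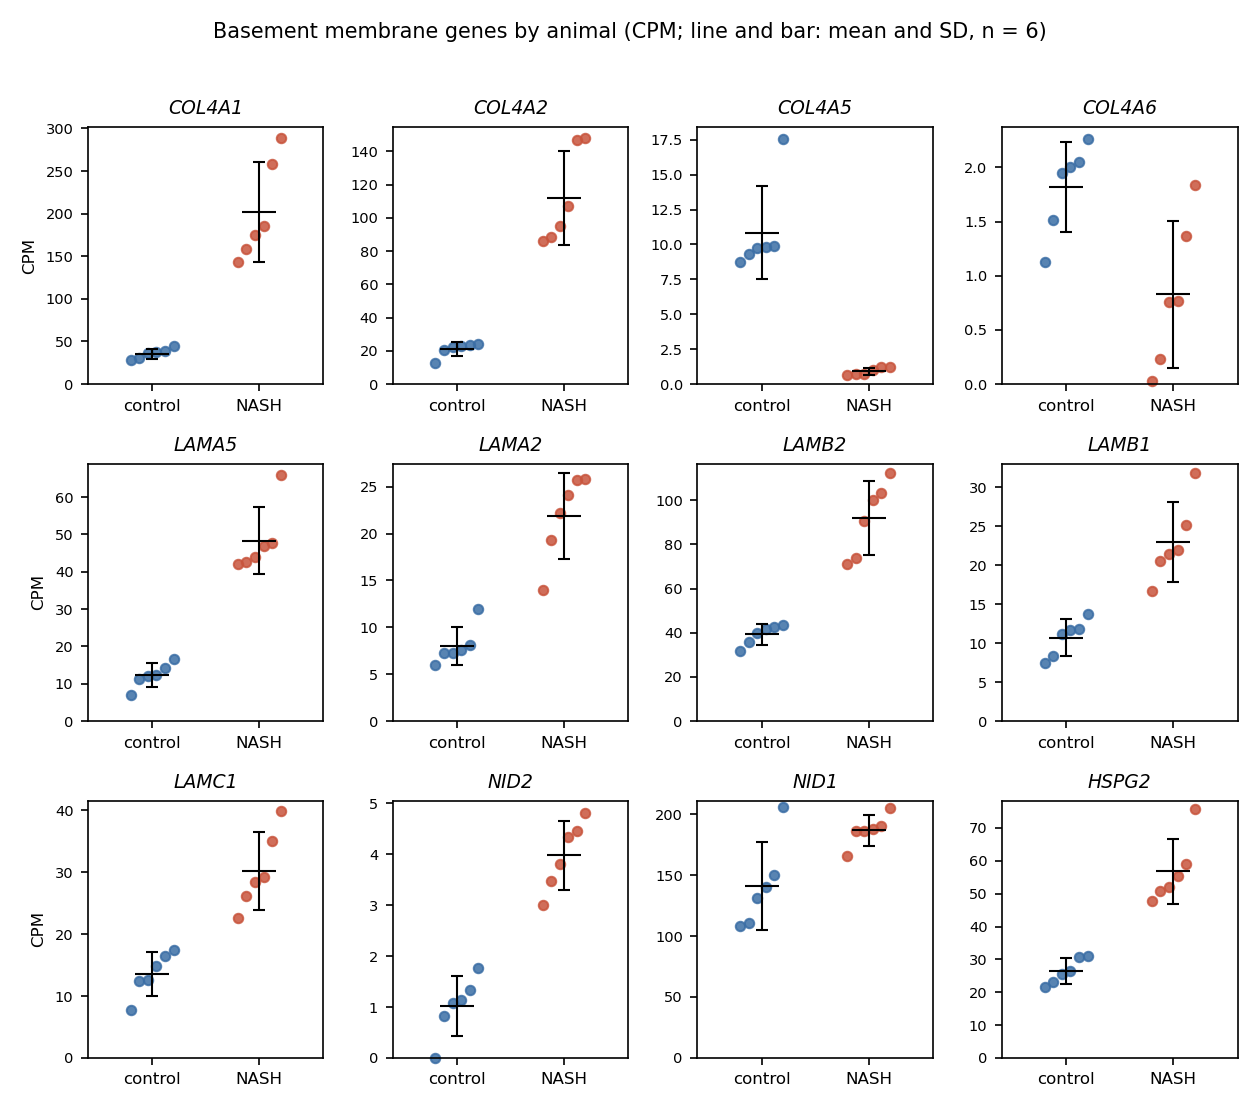
CPM of 12 basement membrane genes in each animal (points), with the mean and SD of each group (line and bar, n = 6), on linear axes that start at 0. *COL4A1*, *COL4A2* and the laminin chains shown were higher in every NASH animal than in any control, *COL4A5* was lower in every NASH animal, and *COL4A6* and *NID1* overlapped.

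Of the 8 laminin chains described here, 7 were called higher. Among the alpha chains, which carry most of the receptor-binding sites, *LAMA5* changed most. It lay between 7.0 and 16.6 CPM in controls (median 12.2) and between 42.1 and 66.0 CPM in NASH (median 45.5), a 3.93-fold rise (log2 fold change 1.97, SE 0.18, adjusted p = 2.16e-06 from edgeR). NASH animal 2 was highest, and the other NASH animals lay within 42.1 to 47.8 CPM. *LAMA2*, the alpha chain best known from muscle, rose 2.73-fold, from between 6.01 and 11.9 CPM (median 7.40) to between 14.0 and 25.9 CPM (median 23.1), also without overlap (adjusted p = 2.64e-05 from edgeR). *LAMA4*, an alpha chain of vessel walls, was scarce, at 0.683 ± 0.244 CPM in controls and 1.82 ± 0.501 CPM in NASH (SD, n = 6 each), and the groups did not overlap (log2 fold change 1.40, SE 0.28, adjusted p = 0.000907 from edgeR). *LAMA1*, the alpha chain of early embryonic laminin, rose 1.81-fold with overlap, since NASH animal 2, at 8.06 CPM, lay below the controls 31 and 45 (adjusted p = 0.00136 from edgeR). *LAMA3*, the alpha chain of the laminin of epithelial hemidesmosomes, did not pass (log2 fold change −0.64, SE 0.40, adjusted p = 0.191 from edgeR). Control 5 was the lowest of its group at 0.286 CPM, and without it *LAMA3* was called lower (log2 fold change −0.84, adjusted p = 0.036 from edgeR).

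Both beta chains rose. *LAMB2* went from between 31.7 and 43.6 CPM (median 40.7) to between 70.9 and 113 CPM (median 95.4), 2.34-fold, and *LAMB1* from between 7.43 and 13.7 CPM (median 11.4) to between 16.7 and 31.8 CPM (median 21.7), 2.15-fold. Neither overlapped (adjusted p = 4.84e-06 and 0.000159 from edgeR). *LAMC1*, part of most laminins, rose 2.22-fold, from between 7.72 and 17.4 CPM (median 13.7) to between 22.6 and 40.0 CPM (median 28.8). Every NASH animal was above every control (adjusted p = 0.00022 from edgeR).

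The linkers were called higher without exception among the 4 measured, by unequal amounts. *NID2*, one of the nidogens that bridge laminin and collagen, had 0 to 1.77 CPM in controls (median 1.11) and 3.01 to 4.82 CPM in NASH (median 4.08), with control 56 at 0 counts (3.82-fold, adjusted p = 0.00204 from edgeR). *NID1* rose least, from 141 ± 35.8 to 187 ± 12.7 CPM (SD, n = 6 each), with overlap, since control 56 at 206 CPM was above all NASH animals (log2 fold change 0.41, SE 0.14, adjusted p = 0.0249 from edgeR). This call was lost when control 31 or 45 or NASH animal 11 or 65 was left out (adjusted p up to 0.0534 from edgeR). *HSPG2*, which encodes perlecan, rose 2.15-fold, from between 21.6 and 31.1 CPM (median 26.0) to between 47.8 and 75.6 CPM (median 53.8), without overlap (adjusted p = 1.18e-05 from edgeR). The row of *AGRN*, which encodes agrin, rose 2.13-fold (adjusted p = 0.000175 from edgeR), but the same count row carries *ISG15*, an interferon-induced gene that is its neighbour in the RefSeq annotation, and reads of the pair cannot be separated.

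Laminin-binding integrin chains were called in all 4 cases, 3 higher and 1 lower. *ITGA3*, the alpha chain of a laminin receptor of epithelia, lay between 9.29 and 12.1 CPM in controls (median 10.8) and between 39.1 and 74.3 CPM in NASH (median 54.3). This was 5.22-fold higher, without overlap and with a narrow spread in controls (log2 fold change 2.39, SE 0.16, adjusted p = 1.75e-07 from edgeR). *ITGB4*, the beta chain of hemidesmosomes, rose 4.03-fold, from between 4.07 and 20.1 CPM (median 6.23) to between 27.5 and 37.6 CPM (median 34.1). Control 10 stood apart at 20.1 CPM, the next control being at 7.02 CPM, and all NASH animals were above it (adjusted p = 0.000258 from edgeR). *ITGA6*, the only known alpha partner of *ITGB4*, was at 62.7 ± 16.3 CPM in controls and 86.0 ± 7.79 CPM in NASH (SD, n = 6 each), with overlap (log2 fold change 0.46, SE 0.15, adjusted p = 0.0232 from edgeR), and without NASH animal 20 it did not pass (adjusted p = 0.0508 from edgeR). *ITGA7*, the laminin receptor chain best known from muscle, went the other way. Its row held between 550 and 1096 CPM in controls (median 810) and between 229 and 359 CPM in NASH (median 281), 2.94-fold lower without overlap (log2 fold change −1.55, SE 0.17, adjusted p = 9.46e-06 from edgeR). In the RefSeq annotation *ITGA7* overlaps a gene now named *TMT1B*, formerly *METTL7B*, which had a count row of its own and was lower as well (log2 fold change −1.47, SE 0.21, adjusted p = 7.34e-05 from edgeR), whereas the gene on its other side, *BLOC1S1*, had no row in the table. How many reads of the *ITGA7* row came from *ITGA7* itself was not tested.

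Of the collagen receptors, both discoidin domain receptors were called higher and neither of the 2 collagen-binding integrin chains in the table passed. The discoidin domain receptors are tyrosine kinases that bind collagen, *DDR1* being typical of epithelia and *DDR2* of mesenchymal cells. *DDR1* lay between 1.18 and 2.89 CPM in controls (median 2.39) and between 21.1 and 32.3 CPM in NASH (median 25.1), a 12.0-fold rise without overlap (log2 fold change 3.58, SE 0.20, adjusted p = 8.35e-08 from edgeR). This was the smallest adjusted p of all members. *DDR2* rose from 31.8 ± 17.4 to 55.3 ± 15.5 CPM (SD, n = 6 each), 1.74-fold, and its groups overlapped, control 5 being at 64.2 CPM (log2 fold change 0.80, SE 0.31, adjusted p = 0.0459 from edgeR). This call lay at the threshold, and it was lost when control 10, 31, 32, 45 or 56 or NASH animal 9, 20, 41 or 65 was left out (adjusted p up to 0.108 from edgeR), while leaving out any 1 animal gave log2 fold changes of 0.64 to 1.12. Without control 5 the log2 fold change was 1.12 (adjusted p = 0.00262 from edgeR). *ITGA1* was between 132 and 173 CPM in controls (median 150) and between 24.2 and 129 CPM in NASH (median 110). Every NASH animal was below every control, but NASH animal 11, at 24.2 CPM, was far below the others of its group, and the test did not pass (log2 fold change −0.61, SE 0.29, adjusted p = 0.0989 from edgeR). Without animal 11 the fall was smaller and was called (log2 fold change −0.40, adjusted p = 0.00366 from edgeR). *ITGA1* overlaps *PELO* in the RefSeq annotation, which has a row of its own. *ITGA10*, a chain known from cartilage, was at 1.07 ± 0.637 CPM in controls and 0.896 ± 0.546 CPM in NASH (SD, n = 6 each; adjusted p = 0.631 from edgeR).

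**Figure D3:**
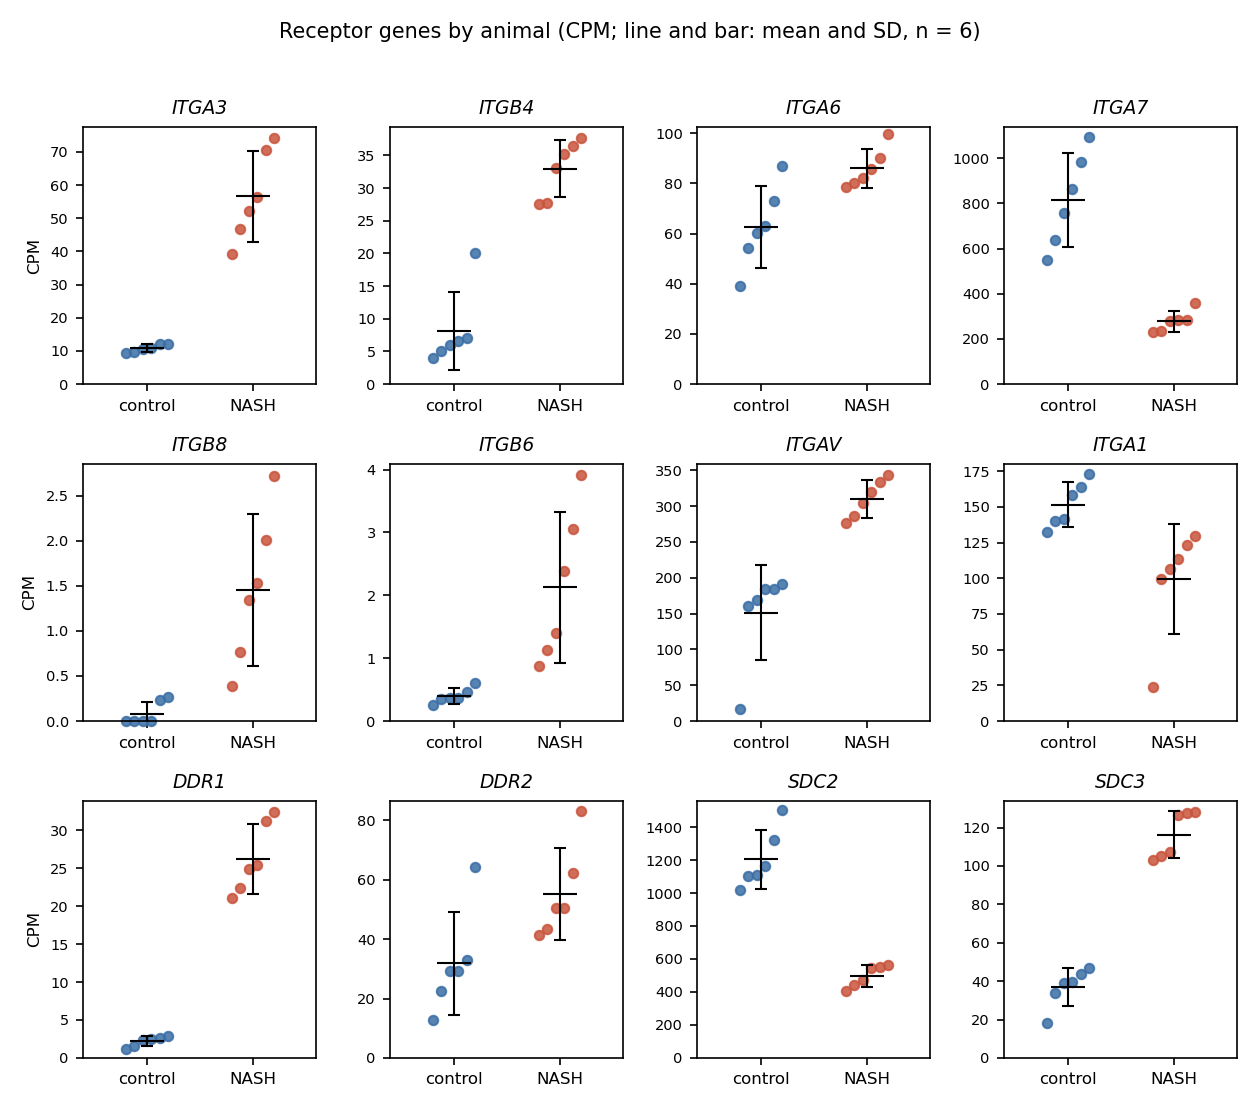
CPM of 12 receptor genes in each animal (points), with the mean and SD of each group (line and bar, n = 6), on linear axes that start at 0. *ITGA3*, *ITGB4*, *DDR1* and *SDC3* were higher in every NASH animal, *ITGA7* and *SDC2* were lower in every NASH animal, and single animals stand apart in *ITGAV* (control 31, 17.2 CPM), *ITGA1* (NASH animal 11, 24.2 CPM) and *ITGB4* (control 10, 20.1 CPM).

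Of the beta chains outside leukocytes, 4 of 5 were called higher, and of the alpha chains grouped as RGD-binding and related, 1 of 5. RGD is a motif of fibronectin, vitronectin and latent TGF-beta, and *ITGA9* is a related chain that binds other ligands. *ITGB8* and *ITGB6* encode partners of *ITGAV* that are known for releasing active TGF-beta from its latent form. *ITGB8* had no count in controls 5, 10, 31 and 45 and at most 5 counts in any control, against 11 to 83 counts in NASH. In CPM this was 0 to 0.269 in controls (median 0) and 0.385 to 2.72 in NASH (median 1.44), without overlap (log2 fold change 4.13, SE 0.78, adjusted p = 0.000649 from edgeR). At such counts the size of the fold is poorly known. *ITGB6* rose 5.33-fold, from between 0.247 and 0.606 CPM (median 0.363) to between 0.875 and 3.91 CPM (median 1.90), on 5 to 10 counts in controls and 25 to 115 in NASH (log2 fold change 2.41, SE 0.41, adjusted p = 0.000277 from edgeR). *ITGB5*, a vitronectin receptor chain, rose 1.91-fold, from between 38.3 and 67.9 CPM (median 53.9) to between 90.3 and 119 CPM (median 98.2), without overlap and with a small error (SE 0.13, adjusted p = 4.9e-05 from edgeR). The row of *ITGB3*, the beta chain of platelets and vessels, rose 2.71-fold (adjusted p = 0.00672 from edgeR), from between 18.2 and 97.3 CPM (median 78.9) to between 146 and 196 CPM (median 182), controls 5 and 56 being far below the other controls at 18.2 and 20.4 CPM. That row carries a second symbol, *AC068234.1*, so that reads of the pair cannot be separated. *ITGB1*, the beta chain that most alpha chains share, did not pass (log2 fold change 0.54, SE 0.27, adjusted p = 0.109 from edgeR), except with library size alone (log2 fold change 1.02, adjusted p = 0.00553 from edgeR). Its controls fell into a low pair (5 and 31, at 65.6 and 66.2 CPM) and 4 animals between 168 and 196 CPM, against 192 to 230 CPM in NASH.

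*ITGAV*, the alpha chain that pairs with these beta chains, was between 17.2 and 191 CPM in controls (median 177) and between 276 and 343 CPM in NASH (median 312). All NASH animals were above all controls, of which control 31 alone was below 160 CPM (log2 fold change 1.04, SE 0.40, adjusted p = 0.0416 from edgeR). Without control 31 the log2 fold change was 0.80 and the error much smaller (adjusted p = 9.29e-06 from edgeR), while the call was lost when any animal other than controls 5 and 31 was left out (adjusted p up to 0.0679 from edgeR). *ITGA5*, the fibronectin receptor chain, was at 46.7 ± 8.88 CPM in controls and 49.0 ± 4.73 CPM in NASH (SD, n = 6 each), and the 95% interval of its log2 fold change ran from −0.20 to 0.33. With library size alone it passed (log2 fold change 0.54, adjusted p = 0.0016 from edgeR). *ITGA8*, a stellate cell and smooth muscle chain, ranged from 0.745 to 4.64 CPM in controls and from 1.26 to 4.73 CPM in NASH (adjusted p = 0.7 from edgeR). *ITGA9*, which binds tenascin C and osteopontin, did not pass (log2 fold change 0.37, SE 0.17, adjusted p = 0.0804 from edgeR), though it did without control 56 (adjusted p = 0.0276 from edgeR), with upper-quartile factors and with library size alone (log2 fold change 0.83, adjusted p = 0.00112 from edgeR). *ITGA2B*, the platelet chain, did not pass either (log2 fold change −0.10, adjusted p = 0.46 from edgeR), but with library size alone it was called higher (log2 fold change 0.37, adjusted p = 0.0105 from edgeR). Its row also carries *GPATCH8*, so that reads of the pair cannot be separated.

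All 6 leukocyte integrin chains in the table were called higher. *ITGAL* and *ITGAM* are alpha chains of lymphocytes and of myeloid cells that pair with *ITGB2*. *ITGAL* rose 2.09-fold, from between 3.86 and 16.5 CPM (median 13.8) to between 22.7 and 34.0 CPM (median 24.1), without overlap (adjusted p = 0.00403 from edgeR). *ITGAM* had between 0 and 1.88 CPM in controls (median 0.921) and between 3.14 and 4.17 CPM in NASH (median 3.25), on 0 to 41 and 96 to 143 counts (log2 fold change 1.85, SE 0.47, adjusted p = 0.00495 from edgeR). The common chain *ITGB2* went from between 10.9 and 38.7 CPM (median 35.6) to between 43.9 and 58.4 CPM (median 51.5), 1.62-fold and without overlap (adjusted p = 0.0218 from edgeR). *ITGA4*, which binds VCAM-1 and fibronectin, rose 4.98-fold with a slight overlap and a wide error (log2 fold change 2.32, SE 0.71, adjusted p = 0.0143 from edgeR), on 0 to 42 counts in controls. In the RefSeq annotation *ITGA4* overlaps *CERKL*, which had no row of its own in the table. *ITGB7*, a chain of gut-homing lymphocytes, rose 1.63-fold without overlap, and *ITGAE*, its alpha partner in T cells within epithelia, rose 1.64-fold with overlap (adjusted p = 0.00298 and 0.00994 from edgeR). Control 5 was lowest of the controls in *ITGAL*, *ITGB2*, *ITGB7* and *ITGAM* and also had the lowest sum of the 13 leukocyte markers, 380 CPM against 490 to 514 CPM in the other controls. The leukocyte markers did not move as 1 group: *CD3E*, a T cell marker, was 2.09-fold lower in NASH (adjusted p = 0.00242 from edgeR), *MARCO*, a macrophage marker, was 2.42-fold lower, and *CD2*, another T cell marker, had a log2 fold change of 0.04.

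The syndecans, transmembrane heparan sulphate proteoglycans, moved in opposite directions. *SDC2* was between 1018 and 1506 CPM in controls (median 1138) and between 408 and 561 CPM in NASH (median 510), 2.42-fold lower without overlap (log2 fold change −1.28, SE 0.12, adjusted p = 1.94e-06 from edgeR). *SDC1*, the main syndecan of epithelia, fell from between 111 and 156 CPM (median 145) to between 82.2 and 100 CPM (median 88.9), also without overlap (log2 fold change −0.63, SE 0.09, adjusted p = 0.000105 from edgeR). Scaled by library size alone, *SDC1* did not pass (log2 fold change −0.15, adjusted p = 0.199 from edgeR), under a scaling that raised the median of all symbols to 0.48. *SDC3*, the syndecan of the nervous system and of macrophages, rose 3.15-fold, from between 18.4 and 46.7 CPM (median 39.3) to between 103 and 128 CPM (median 117), without overlap (adjusted p = 9.52e-06 from edgeR). *SDC4*, a partner of integrins in focal adhesions, varied widely within both groups, from 33.0 to 227 CPM in controls and from 46.7 to 236 CPM in NASH (log2 fold change 0.15, SE 0.43, adjusted p = 0.79 from edgeR). *CD44*, the receptor for hyaluronan, was lowest in control 10 at 44.8 CPM and highest among controls in animal 56 at 120 CPM, and lay between 225 and 279 CPM in NASH, its spread being narrower there. It was called higher, 2.92-fold and without overlap (log2 fold change 1.54, SE 0.20, adjusted p = 3.54e-05 from edgeR).

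Of the proteins named for integrin binding, *ILK*, the integrin-linked kinase, which joins beta chains to actin in a complex with PINCH and parvin, rose 1.61-fold. It lay between 31.7 and 43.6 CPM in controls (median 40.4) and between 58.5 and 69.1 CPM in NASH (median 61.8), without overlap (log2 fold change 0.69, SE 0.08, adjusted p = 1.75e-05 from edgeR). *ITGB1BP1*, a regulator of integrin activation, did not pass (log2 fold change 0.76, SE 0.33, adjusted p = 0.071 from edgeR). It passed without control 56 (adjusted p = 0.0343 from edgeR), with library size alone (adjusted p = 0.00611 from edgeR) and, with all animals, by DESeq2, limma-voom and limma on the rlog values (adjusted p = 0.0411, 0.0331 and 0.0344). *ITGB3BP*, a centromere protein, did not pass either (log2 fold change −0.13, SE 0.10, adjusted p = 0.325 from edgeR), but with library size alone it was called higher (log2 fold change 0.36, adjusted p = 0.00595 from edgeR).

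Whether members of a pair changed by the same amount was compared through their log2 ratio in each animal. The pairs tested were chains of 1 molecule, alternative chains of 1 position and related receptors. Of 13 pairs listed, 7 had more than 3 counts of both genes in every animal and entered an exact permutation test over the animals (two-sided), which can give no p under 0.00216. The ratio *COL4A1*/*COL4A2* was 0.78 ± 0.26 in controls and 0.84 ± 0.11 in NASH (SD, n = 6 each), a difference of 0.06 (exact p = 0.643, adjusted p = 0.68). The differences of *LAMB1*/*LAMC1* (−0.07) and *LAMB2*/*LAMB1* (0.12) were likewise smaller than the spread between animals (exact p = 0.68 and 0.481). *ITGA6*/*ITGB4* fell by 1.72, from 3.11 ± 0.84 to 1.39 ± 0.19 (SD, n = 6 each), and every NASH animal was below every control (exact p = 0.00216, adjusted p = 0.00758). *DDR2*/*DDR1* fell by 2.67, from 3.72 ± 1.09 to 1.05 ± 0.55 (SD, n = 6 each), also without overlap (exact p = 0.00216, adjusted p = 0.00758). The difference of *LAMA5*/*LAMA4* was 0.67 (exact p = 0.0779, adjusted p = 0.182). That of *ITGAV*/*ITGB1* was also 0.67 (exact p = 0.177, adjusted p = 0.311), and without control 5, whose ratio of 1.54 was above all NASH animals, it was 1.0 (adjusted p = 0.00505). Control 31 stood apart on the other side, at −1.94, the lowest ratio of all animals, and leaving it out gave the smallest difference of all single omissions.

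**Figure D4:**
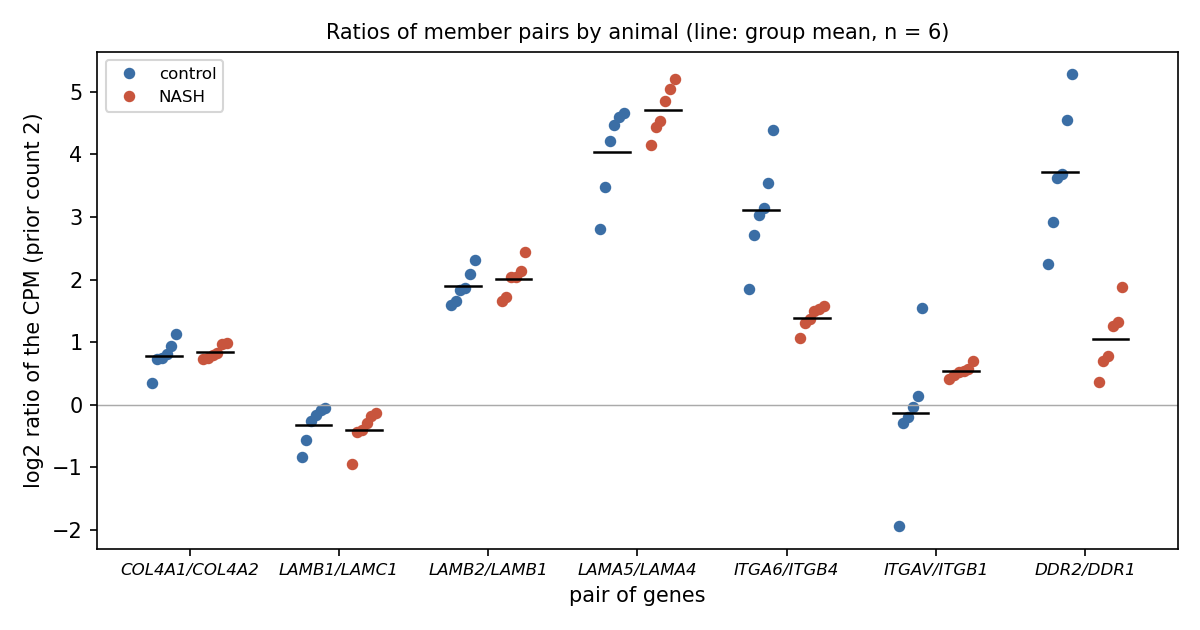
Log2 ratio of the CPM of 7 pairs of members in each animal (points; prior count of 2), with the group mean (line, n = 6). The groups overlap in 5 pairs and are apart in *ITGA6*/*ITGB4* and *DDR2*/*DDR1*, which are lower in NASH.

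Genes around this set were taken from 4 lists, whose counts stand beside 27.9% of all symbols higher and 26% lower. Of the list of integrin adaptors and focal adhesion genes, 28 of 30 had a row, of which 15 rose and 5 fell (median of the list 0.50 on the log2 scale). *PTK2B*, a kinase related to focal adhesion kinase, and *ZYX*, which encodes zyxin, rose most, by 2.21 and 2.12, and *LIMS2*, a PINCH protein and partner of *ILK*, and *SHARPIN*, which keeps integrins inactive, fell by 0.82 and 0.47. Of the integrin ligands outside the set, 18 of 24 were in the table, 10 higher and 6 lower (median 0.65). *THBS1* (thrombospondin 1) and *CCN1* rose by 4.06 and 3.30, while *FN1* (fibronectin), with a log2 fold change of −0.99, and *POSTN* (periostin), with −0.80, were lower. The other basement membrane genes numbered 12 of 20 in the table, 6 higher and 2 lower (median 0.52), from −1.0 for *SMOC1* and −0.45 for *FBLN1* to 1.45 for *SPARC*, which encodes a protein that binds collagen. *HMCN1* had the next value, 1.18, and did not pass (adjusted p = 0.179 from edgeR). Of the other matrix receptors, 18 of 22 were in the table, 11 higher and 2 lower (median 0.40). *MRC2*, an endocytic collagen receptor, and *HMMR*, which binds hyaluronan, rose by 3.84 and 2.62, and *LYVE1*, a hyaluronan receptor of sinusoidal endothelium, and *GPC4*, a glypican, fell by 0.81 and 0.41. With library size alone as the scaling, *SHARPIN*, *FBLN1* and *GPC4* did not fall (log2 fold changes of 0.0052, 0.018 and 0.060), *POSTN* did not pass (−0.33, adjusted p = 0.162 from edgeR), and *LIMS2*, *FN1*, *SMOC1* and *LYVE1* were still called lower.

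**Figure D5:**
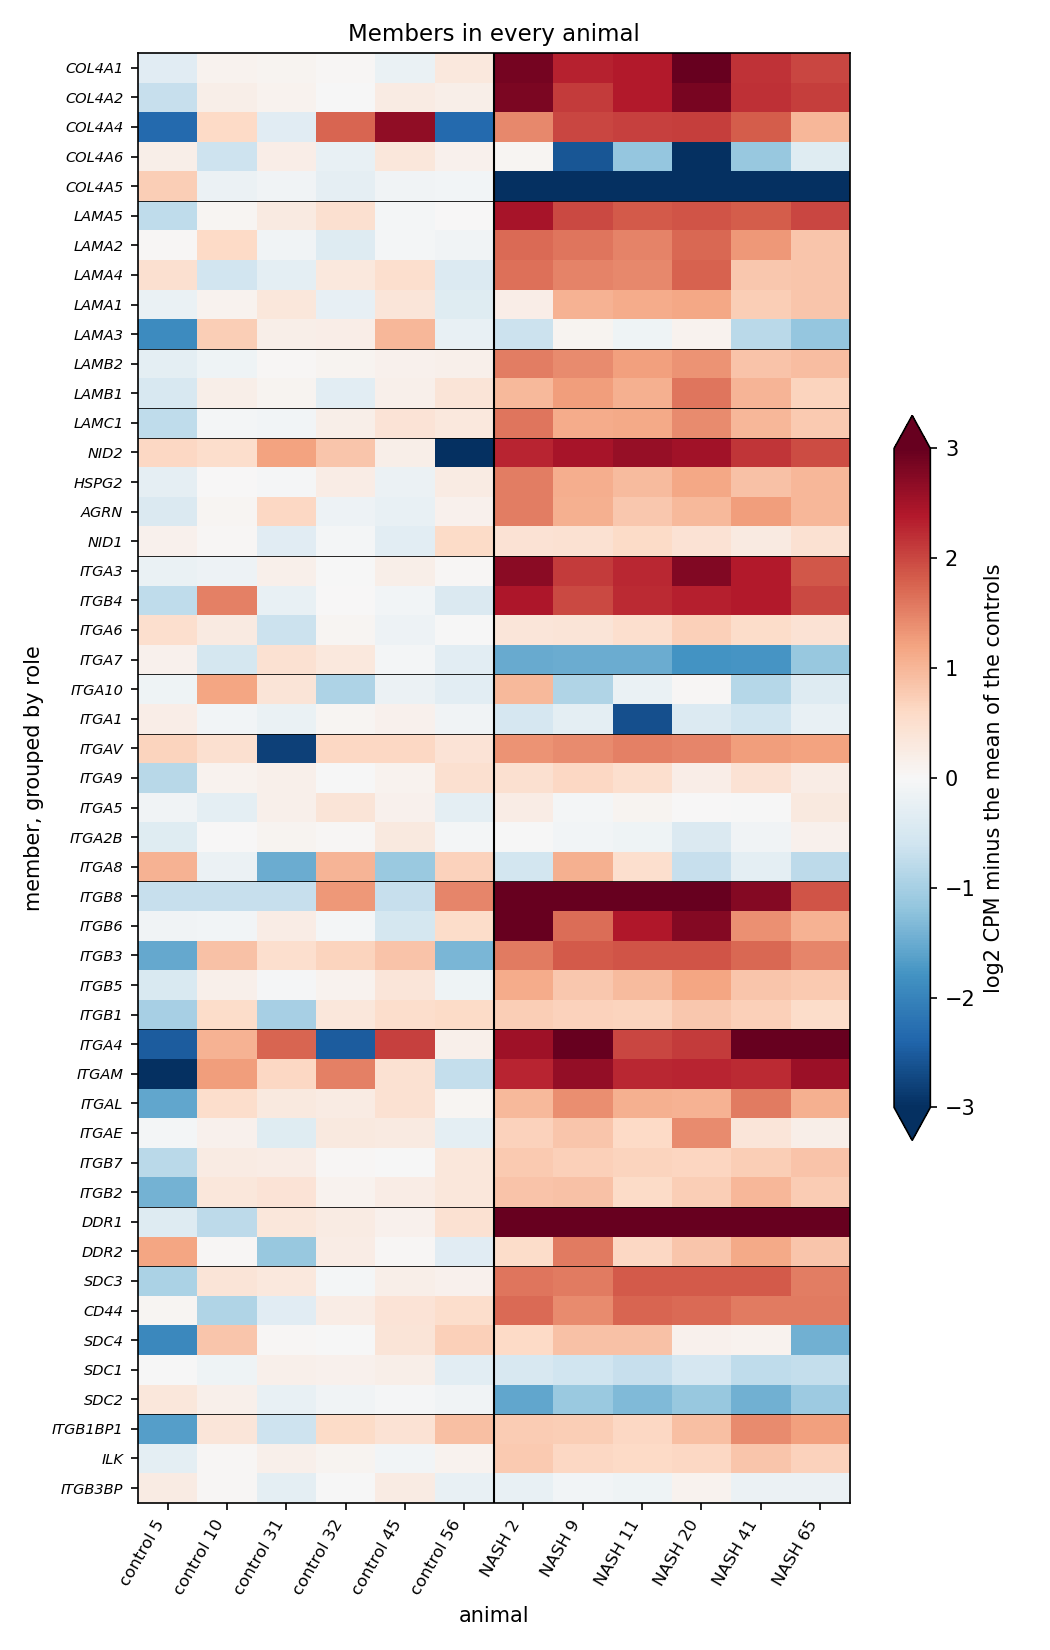
Log2 CPM (prior count of 2) of 49 of the 50 members in each of the 12 animals, less the mean of the controls, in rows grouped by role; the colour scale runs from −3 to 3 and darker ends hold all values beyond it. The rise of most rows in the 6 NASH animals, the fall of *COL4A5*, *ITGA7* and *SDC2*, and single low cells such as *ITGAV* in control 31 and *NID2* in control 56 can be read from it.

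Animals of a group differed in these genes. Among controls, animal 5 was lowest in 27 of the 50 members (54%), and lowest in 26.3% of all symbols. Both counts give ties to animal 5, as in *ITGB8*, *ITGA4* and *COL4A4*, where other controls also had 0 counts. Without animal 5, 33 members were higher and 5 lower. Among NASH animals, animal 65 was lowest in 22 members (44%), against 19.0% of all symbols. Of the 24 members higher by a log2 fold change of at least 1, NASH animals 2 and 20 were the highest pair in 10, among them *COL4A1*, *COL4A2*, *LAMA2*, *LAMA4*, *LAMC1*, *HSPG2*, *ITGA3*, *ITGB6* and *DDR1*, and animal 65 was the lowest in 15. Over all symbols, animal 20 was the highest of its group in 22.0% and animal 2 in 17.1%. How often they were the highest pair over all symbols was not counted. Animals 2 and 20 also had the highest sums of stellate cell and myofibroblast markers, 2251 and 2480 CPM, and animal 65 the lowest of the NASH group, 1313 CPM. For cholangiocyte markers, animal 20 was highest at 1017 CPM and animal 65 lowest at 586 CPM. The part of these cells in the differences between animals was not tested.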

How the data were processed

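The reads were single-end and strand-specific. The authors used Trimmomatic for trimming and HISAT2 for mapping to Cavpor3.0, ignored multimapped reads and quantified loci with StringTie (versions 0.38.0, 2.1.0 and 1.3.6 in the submitters' processing notes). They deposited raw counts per locus, without symbols or coordinates, and log2 values made with DESeq2's rlog transformation under human orthologue symbols, for genes with a total of at least 200 counts. Whether counting used the strand is not given in the sources used here. To pair symbols with count rows, the transformation was repeated, which returned the deposited values within 8.4e-07. The 11896 symbols stood on 11031 rows, and 1515 symbols shared a row. Counts per animal added up to between 16980274 and 33091460. All counts entered edgeR 4.0.16 (TMM, robust glmQLFit, glmQLFTest, R 4.3.3), fitted over all 11896 symbols with 10 residual degrees of freedom. The standard error is the log2 fold change over the square root of F. Ratios used log2 CPM with a prior count of 2. Counts of 3 or fewer were taken as the floor. For any pair of animals of 1 group, the chi-square of their counts was at least 43.4 per degree of freedom, more than 1 library sequenced again would give. RefSeq (mCavPor4.1) held 49 of the 50 members, and only neighbourhood was taken from it. Procedures were tested on simulated data. Alternatives were RLE and upper-quartile factors, library size alone, DESeq2 1.42.0, limma 3.58.1 (voom and rlog values), filters, thresholds and each animal left out. Members, lists, pairs and the rule for naming (members past the threshold that moved by 1 or more on the log2 scale with no overlap, those moving against their role, and the 2 highest and 2 lowest of each list) were chosen with earlier results of these data known. Other members, *METTL7B*, *HMCN1*, *CD3E*, *CD2*, *MARCO*, *CLEC1B* and *TUBB1* were named after their values were seen. Figures were drawn with matplotlib 3.10.9. Of the members counted in the totals, 1 is not reported here.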

Additional observations from a re-analysis of the deposited data

Results flagged for a closer look

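In each group of 6 animals, a member was singled out where its highest or lowest animal lay apart from the nearest other animal by more of the group's range than Dixon's 95% critical value. Over the 100 groups tested, chance gives about 1 in 20, and 11 values were found. In control 5 they were the high *COL4A5* (17.6 CPM, the next control at 9.89 CPM) and the low *COL4A2* (12.7 CPM), *ITGAL* (3.86 CPM) and *ITGB2* (10.9 CPM). Control 10 was high in *ITGB4* (20.1 CPM, the next at 7.02 CPM) and in *LAMA2* (11.9 CPM), and control 31 was low in *ITGAV* (17.2 CPM, the next at 160 CPM). NASH animal 2 was high in *LAMA5* (66.0 CPM) and *ITGA10* (1.94 CPM), NASH animal 11 was low in *ITGA1* (24.2 CPM, the next at 99.4 CPM), and NASH animal 20 was high in *ITGB3BP* (25.3 CPM).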

How the results depend on the processing

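Over the alternatives, between 27 and 39 members were higher and between 3 and 5 lower, apart from testing for changes beyond 1 on the log2 scale, where 12 were higher and 3 lower. With each animal left out, 30 to 33 were higher and 4 or 5 lower, and without the members on shared rows 31 and 4. Library size alone, which raised the median of all symbols to 0.48, called 7603 of all symbols higher and 911 lower (against 3318 and 3093) and 39 members higher and 3 lower, and *ITGA2B* (0.37) and *ITGB3BP* (0.36) turned to higher. When testing for changes beyond 1, the counts higher and lower were 6 and 0 for adaptors, 5 and 0 for ligands, 1 and 0 for other basement membrane genes and 2 and 0 for other receptors. With library size alone, 23 adaptors were higher and 1 lower, and 2 ligands, 1 other basement membrane gene and 1 other receptor were lower. Lower adaptors numbered 3 with upper-quartile factors, 2 with every row with at least 1 count and 3 at a threshold of 0.01, and lower receptors 1 with every row. The *LAMA5*/*LAMA4* difference passed with deposited rlog values (0.93). With each animal left out, that of *ITGAV*/*ITGB1* ran from 0.31 (without control 31) to 1.0 (without control 5). The causes were not tested. Counts were few in some members: controls had 0 to 5 counts of *ITGB8*, 5 to 10 of *ITGB6* and 0 to 58 of *COL4A4*, and the effect of depth was not tested. No paired analysis was possible because the animals' numbers are not shared between the groups.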
